A study of Mus musculus with 18 samples.

Results

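The genes described are 8 transcription factor genes that direct helper T cell subsets: Tbx21, Eomes, Stat4, Stat6, Maf, Bcl6, Prdm1 and Rora. Their members are all regions in the methylation tables that overlapped the gene body or the 5 kb on each side of it, in the GENCODE annotation of mm10. This gave 523 of the 553467 regions listed for CD4+ T cells and 407 of the 411770 listed for CD11b+ myeloid cells. Rora, the longest gene, held 345 and 257 of them.

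Whole-genome bisulfite sequencing (WGBS), in which unmethylated cytosines are converted and methylated ones are read as cytosine, was run on splenic CD4+ and CD11b+ cells of Dnmt3a R878H/+ and Dnmt3a+/+ (WT) mice, with 4 mice per genotype and cell type. Both Cre-positive mice without the mutant allele and Cre-negative mice with the unrecombined allele count as Dnmt3a+/+ in the study, which says so for its transplantation controls. R878H/+ is a heterozygous loss-of-function mutation of the de novo DNA methyltransferase DNMT3A. It was switched on by Vav1-iCre, which is active throughout the hematopoietic system from early on, so both cell types and their progenitors carried it. The study's mice were 8 to 10 weeks old, and both sexes were pooled. CD11b+ cells were selected magnetically, and CD4+ cells were selected from what remained. The tables give 1 mean per genotype for each region and 0 columns for single mice. No error between mice, no coverage of single regions and no new test of genotype could therefore be given. Of the region caller's own test values only the q is used. Every difference below is one between 2 group means. The sample titles also carry a number after the letter S. It is above 200 in all R878H/+ CD4 samples, in 1 of the 4 WT CD4 samples and in the second entries of 2 R878H/+ CD11b mice. The labels do not say what it marks, and its part in the values was not tested.

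A helper T cell takes on 1 of several programmes as it is activated, and each is led by a small set of transcription factors. T-bet (Tbx21), with STAT4 below the IL-12 receptor, drives the interferon-gamma programme, and the related T-box factor eomesodermin (Eomes) acts in cytotoxic and memory cells. STAT6 carries the IL-4 signal and c-Maf (Maf) supports the production of IL-4, IL-21 and IL-10. BCL6 directs follicular helper cells, and BLIMP-1 (Prdm1) opposes it. RORα (Rora) acts beside RORγt in cells that make IL-17. DNA methylation at such genes is laid down and removed as T cells mature, and DNMT3A places much of the new methylation.

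A region was called a differentially methylated region (DMR) by the criteria of the study: more than 10 CpGs, group means more than 20 percentage points apart, and a region caller's q below 0.05 in the deposited table. Set against the mm10 sequence, the CpG number in the tables counted cytosines on both strands, so that more than 10 CpGs can be as few as 6 CpG dinucleotides. The number was larger than the CpG dinucleotides of the region in 92.4% of CD4 regions, and never larger than the CpG cytosines of both strands together. "CpG cytosines" is used below for this number. WT is read as the first of the 2 unnamed columns of means, since R878H/+ cells are the less methylated ones in the study, and each direction rests on that reading.

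The sequence of the DMR with the largest loss in CD4+ cells is shown for each gene that had one, since these windows differ widely in CpG content. All are from the plus strand of mm10, 5′ to 3′, with CpG dinucleotides in capitals, and are cut at 300 bases from the start of the DMR. A lone capital G at the start is the second base of a CpG that began 1 base earlier. The windows were chr9:69348734-69349033 in an intron of Rora, chr1:52012728-52013027 in an intron of Stat4, chr10:127662748-127662982 beyond the end of Stat6 within Nab2, chr8:115711179-115711478 upstream of Maf, chr16:23993356-23993655 upstream of Bcl6, and chr10:44432343-44432642 beyond the end of Prdm1.
Rora: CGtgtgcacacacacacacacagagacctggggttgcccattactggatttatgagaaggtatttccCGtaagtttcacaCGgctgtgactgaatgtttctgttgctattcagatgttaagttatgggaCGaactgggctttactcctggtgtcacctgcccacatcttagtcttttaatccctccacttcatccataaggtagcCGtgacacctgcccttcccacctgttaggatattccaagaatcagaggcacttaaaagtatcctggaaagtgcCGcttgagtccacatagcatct
Stat4: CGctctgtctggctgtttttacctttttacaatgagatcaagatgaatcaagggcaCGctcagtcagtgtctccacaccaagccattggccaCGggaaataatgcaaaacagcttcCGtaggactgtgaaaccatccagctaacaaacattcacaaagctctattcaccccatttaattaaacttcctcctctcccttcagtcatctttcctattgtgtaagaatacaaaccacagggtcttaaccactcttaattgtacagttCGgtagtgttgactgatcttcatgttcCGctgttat
Stat6: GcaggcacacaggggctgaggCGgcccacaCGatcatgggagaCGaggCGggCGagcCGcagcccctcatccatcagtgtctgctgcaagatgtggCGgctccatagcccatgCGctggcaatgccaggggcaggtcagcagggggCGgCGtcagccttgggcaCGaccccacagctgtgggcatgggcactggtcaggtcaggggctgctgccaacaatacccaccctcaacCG
Maf: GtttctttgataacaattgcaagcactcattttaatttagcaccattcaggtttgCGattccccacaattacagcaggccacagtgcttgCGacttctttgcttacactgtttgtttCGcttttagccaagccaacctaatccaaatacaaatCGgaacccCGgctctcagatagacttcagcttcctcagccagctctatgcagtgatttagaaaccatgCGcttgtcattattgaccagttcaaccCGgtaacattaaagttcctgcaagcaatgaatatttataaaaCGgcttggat
Bcl6: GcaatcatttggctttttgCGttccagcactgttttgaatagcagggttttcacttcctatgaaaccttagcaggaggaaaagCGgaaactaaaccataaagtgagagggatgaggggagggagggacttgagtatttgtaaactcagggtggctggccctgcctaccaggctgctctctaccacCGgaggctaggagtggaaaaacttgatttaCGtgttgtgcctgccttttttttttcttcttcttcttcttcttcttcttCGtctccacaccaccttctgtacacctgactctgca
Prdm1: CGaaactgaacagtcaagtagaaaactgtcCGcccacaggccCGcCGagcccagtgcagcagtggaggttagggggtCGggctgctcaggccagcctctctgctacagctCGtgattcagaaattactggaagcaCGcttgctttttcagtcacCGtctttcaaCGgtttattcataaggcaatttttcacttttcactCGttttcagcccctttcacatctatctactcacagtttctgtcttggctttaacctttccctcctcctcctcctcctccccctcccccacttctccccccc

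The Stat6 window was the densest, with 12 CpG dinucleotides in 235 bases, and the Bcl6 window the sparsest, with 5 in 300. Matches to 8 short words for factor binding, searched on both strands, were few in these windows, and 3 of the words (GGTGTGA for T-box factors, AGATAA for GATA factors and TTCCTAGAA for BCL6) had none. The Rora window held TTCNNNGAA for STAT factors and GAAAGTG for PRDM1 1 time each, as did 9.70% and 5.56% of all listed CD4 regions of more than 10 CpG cytosines cut to the same length. The Stat6 window held AGGTCA for ROR factors 2 times and TGCTGA for MAF factors 1 time, against 14.4% and 18.6% of regions with at least 1 match. TGTGGT for RUNX factors was present 1 time in the Stat4 window and in 22.1% of all regions. These matches describe the letters and do not show binding.

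In CD4+ cells methylation was lower in R878H/+ at 513 of the 523 regions of the 8 genes (98.1%, compared with 95.5% of all listed regions) and higher at 10. The median region went from 90.2% in WT to 80.1%, and the median difference was -8.55 percentage points (95% order-statistic interval over regions -9.25 to -7.93), compared with -6.85 over all listed CD4 regions. Regions of 1 gene are neighbours and not replicates, so the interval only describes the median over these regions and is no error between mice. The regions themselves spread more widely, with quartiles of -14.1 and -4.88 points. The largest gain at any of them was 2.38 points. In CD11b+ cells 382 of the 407 regions were lower (93.9%, all listed regions 93.4%) and 25 were higher, with medians of 89.1% and 79.9% and a median difference of -8.0 points (-8.63 to -7.25), against -6.55 over all regions listed there.

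**Figure D1:**
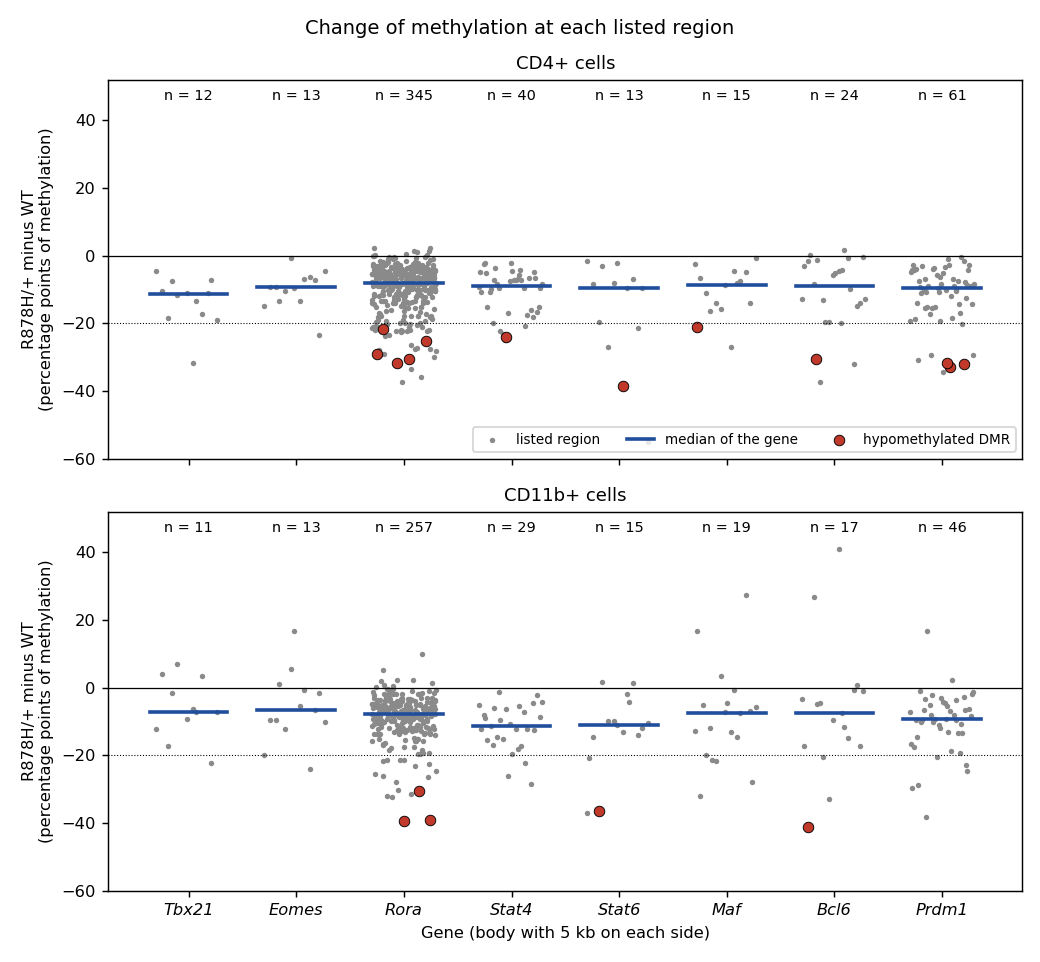
Each point is the R878H/+ mean minus the WT mean of 1 listed region, in percentage points (y axis), for the 8 genes (x axis) in CD4+ cells (top) and CD11b+ cells (bottom); n is the number of regions, blue bars are gene medians, red points hypomethylated DMRs and the dotted line a loss of 20 points. Nearly all points of CD4+ cells lie below 0, while in CD11b+ cells a few points of Eomes, Maf, Bcl6 and Prdm1 lie above 15.

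The gene medians lay close together. In CD4+ cells the gene medians ran from -7.98 points in Rora to -11.3 points in Tbx21, with the other 6 between -8.73 (Maf) and -9.48 (Stat6). The range of each gene's own regions was far wider than these gaps. Every listed region of Tbx21, Eomes, Stat4, Stat6, Maf and Prdm1 was lower in R878H/+, 154 regions in all, where 95.5% of all CD4 regions were, and the 10 exceptions were 8 of Rora and 2 of Bcl6. In CD11b+ cells the gene medians ran from -6.52 (Eomes) to -11.3 points (Stat4), and Stat4 was the only one of the 8 genes with no region higher in R878H/+.

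The size of the loss varied with the WT level. Member regions of CD4+ cells that were 90% to 100% methylated in WT had a median difference of -5.76 points (270 regions, all listed regions -5.18). Those at 80% to 90% had -11.7 (134 regions, all -8.2), those at 60% to 80% -16.6 (65 regions, all -12.6), and those at 20% to 60% -17.6 (36 regions, all -13.5). In each of these classes the member median was lower than that of all listed regions, and the same order held in CD11b+ cells, with -5.71, -9.68, -15.1 and -17.0 points. Below 20% in WT the member medians of the 2 cell types differed in sign, while those of all listed regions did not. The member median was -5.36 in CD4+ cells (18 regions, all -2.75) and 0.257 in CD11b+ cells (22 regions, all -1.8).

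In CD4+ cells 12 of the 265 regions with more than 10 CpG cytosines (4.53%) were hypomethylated DMRs, and 0 were hypermethylated. Of all listed CD4 regions of that size 1.49% were hypomethylated DMRs and 0.00121% hypermethylated ones. A loss above 20 points, whatever the q, was present at 42 of the 265 (15.8%), compared with 6.89% of all. At least 1 CD4 DMR was present in 6 of the 8 genes, namely Rora with 5, Prdm1 with 3, and Stat4, Stat6, Maf and Bcl6 with 1 each, against 11.8% of protein-coding genes with a region of this size. A gene with more regions has more chances of a DMR, and Rora is very long; without Rora 7 of 96 regions were DMRs (7.29%). In CD11b+ cells 5 of 162 regions (3.09%) were hypomethylated DMRs, 3 of Rora and 1 each of Stat6 and Bcl6, compared with 1.38% of all regions of that size. Losses above 20 points came to 18 regions (11.1%, all 7.75%), hypermethylated DMRs to 0 (all 0.0302%), and genes with a DMR to 3 of 8 (all 8.9%).

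Of the member regions of more than 10 CpG cytosines, 12 in CD4+ and 10 in CD11b+ cells lay within 1 kb of a transcript start of their gene, and 0 of these were DMRs. Over all protein-coding genes 3.35% of such promoter regions were hypomethylated DMRs in CD4+ cells and 2.86% in CD11b+ cells, so with so few regions a count of 0 says little. Of the 12 CD4 DMRs 8 were in introns, 2 in the upstream flank and 2 in the downstream flank, and of the 5 CD11b DMRs 4 were in introns and 1 in the downstream flank. All 12 CD4 DMRs had a listed CD11b region over at least part of them, and all 12 were lower in R878H/+ there too, 5 by more than 20 points. DMRs in both tables numbered 2 of the 12, one in Rora and the one beyond Stat6. Of all 3683 CD4 DMRs, 33.7% had a DMR of CD11b+ cells as the region overlapping them most, 92.8% were lower in R878H/+ there, and 70.7% fell by more than 20 points there.

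**Figure D2:**
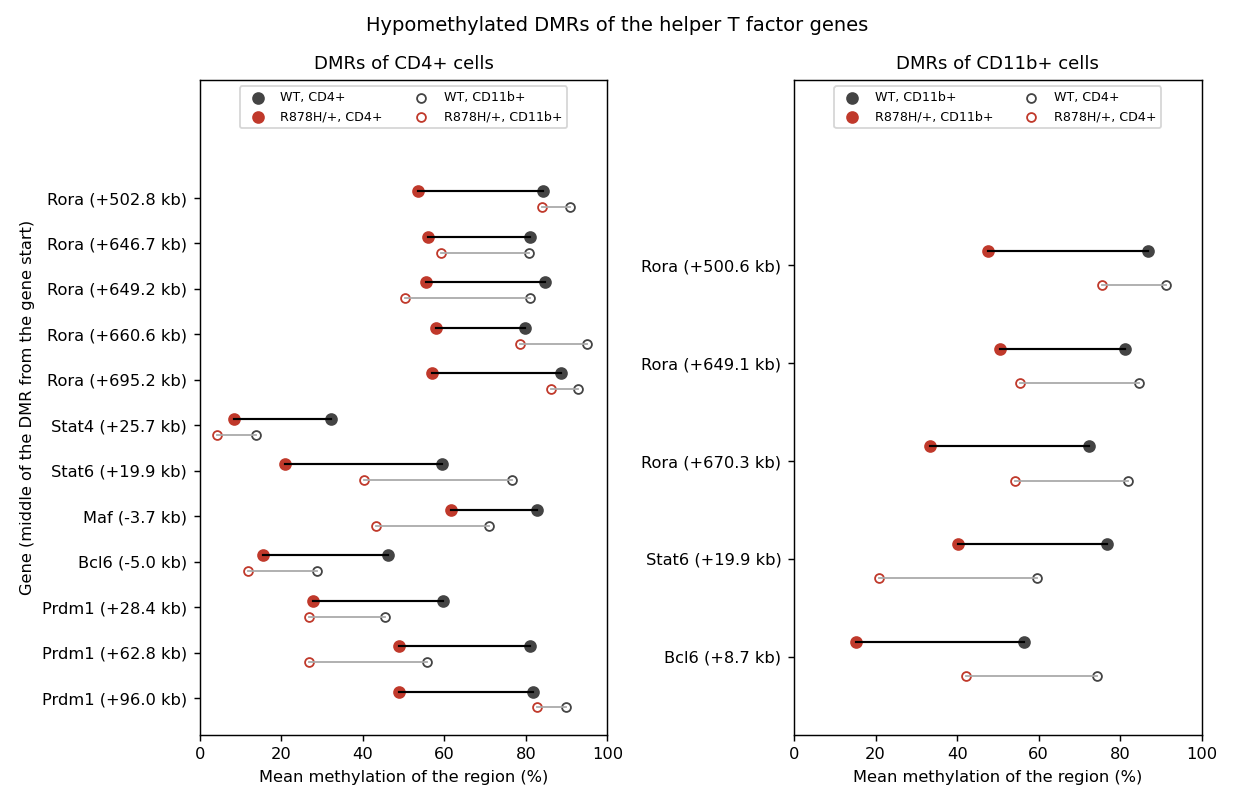
Mean methylation in percent (x axis) of each hypomethylated DMR (rows, named by gene and by the distance of its middle from the gene start in kb) of CD4+ cells (left, 12 DMRs) and CD11b+ cells (right, 5 DMRs); black is WT and red R878H/+, filled for the cell type of the DMR and open for the region of the other cell type that overlapped it most. R878H/+ lies to the left of WT in every pair, and the open pair is short at the Rora DMRs at 502.8 and 695.2 kb and the Prdm1 DMR at 96.0 kb.

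Tbx21, which encodes T-bet, had 0 DMRs in both cell types. It had 12 listed regions in CD4+ cells, 7 of them with more than 10 CpG cytosines, and all 12 were lower in R878H/+. Its largest loss, in the first part of the gene at chr11:97113614-97114208, was from 55.2% to 23.6% (-31.6 points), but this intronic region counted exactly 10 CpG cytosines and so could not be a DMR. Just downstream at chr11:97112839-97113523, its largest loss among regions of more than 10, CD4+ cells went from 82.0% to 63.1%. The region nearest the single annotated start, in the promoter at chr11:97116253-97116630, went from 75.4% to 57.0%.

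Within the Tbx21 body the group means of CD11b+ cells were higher in R878H/+ at 3 regions, by at most 6.9 points. None of the 3 had a q below 0.05. Of the 11 CD11b regions listed for Tbx21, 8 were lower (72.7%, all listed regions 93.4%). The region at chr11:97112839-97113285 was 71.1% in WT and 78.0% in R878H/+ CD11b+ cells, where CD4+ cells had lost 18.9 points. Higher values in R878H/+ were also listed at chr11:97111911-97112514 (87.7% and 91.3%) and chr11:97103895-97104499 (77.3% and 81.3%). At the 5 Tbx21 regions that matched between the cell types, the CD4 difference was lower than the CD11b difference by a median of 11.2 points, compared with 0.3 points at all 136879 matched pairs. The 5 values of CD4 minus CD11b ran from -25.8 to 7.4 points. The value of 7.4 was beyond the end of the gene at chr11:97093148-97093547, where CD11b+ cells lost more. The promoter was lower in R878H/+ in both, from 57.6% to 50.4% in CD11b+ cells. With group means alone, it was not tested whether the cell types differ in this.

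Eomes, the gene with the lowest median WT level of the 8 (51.6% in CD4+ and 27.4% in CD11b+ cells), also had 0 DMRs. Its largest CD4 loss among regions of more than 10 CpG cytosines was at chr9:118479690-118480427, about 1.85 kb past the gene start, from 51.6% to 28.1% (-23.5 points). CD11b+ cells had nearly the same values there, 47.9% and 23.9%. The neighbouring CD4 region at chr9:118479461-118479683 went from 19.5% to 6.18%. Methylation in WT was higher towards the end of the gene, and a region past the end at chr9:118487795-118487854 was again at 1.98% and 1.15%.

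The RefSeq promoter of Eomes (GRCm38.p6, plus strand, chr9:118477939-118478238), is shown because a listed CD11b region of 2.75% in WT and 1.33% in R878H/+ overlapped its 3′ end, the part around the start. The rest of it has no listed value. It held 10 CpG dinucleotides in 300 bases, shown in capitals.
Eomes promoter: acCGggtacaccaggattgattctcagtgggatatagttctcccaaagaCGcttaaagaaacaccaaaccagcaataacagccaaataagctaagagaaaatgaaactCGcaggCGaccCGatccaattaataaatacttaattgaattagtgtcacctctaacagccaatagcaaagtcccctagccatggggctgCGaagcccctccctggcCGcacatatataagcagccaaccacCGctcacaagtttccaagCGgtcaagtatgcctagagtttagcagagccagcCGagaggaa

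**Figure D3:**
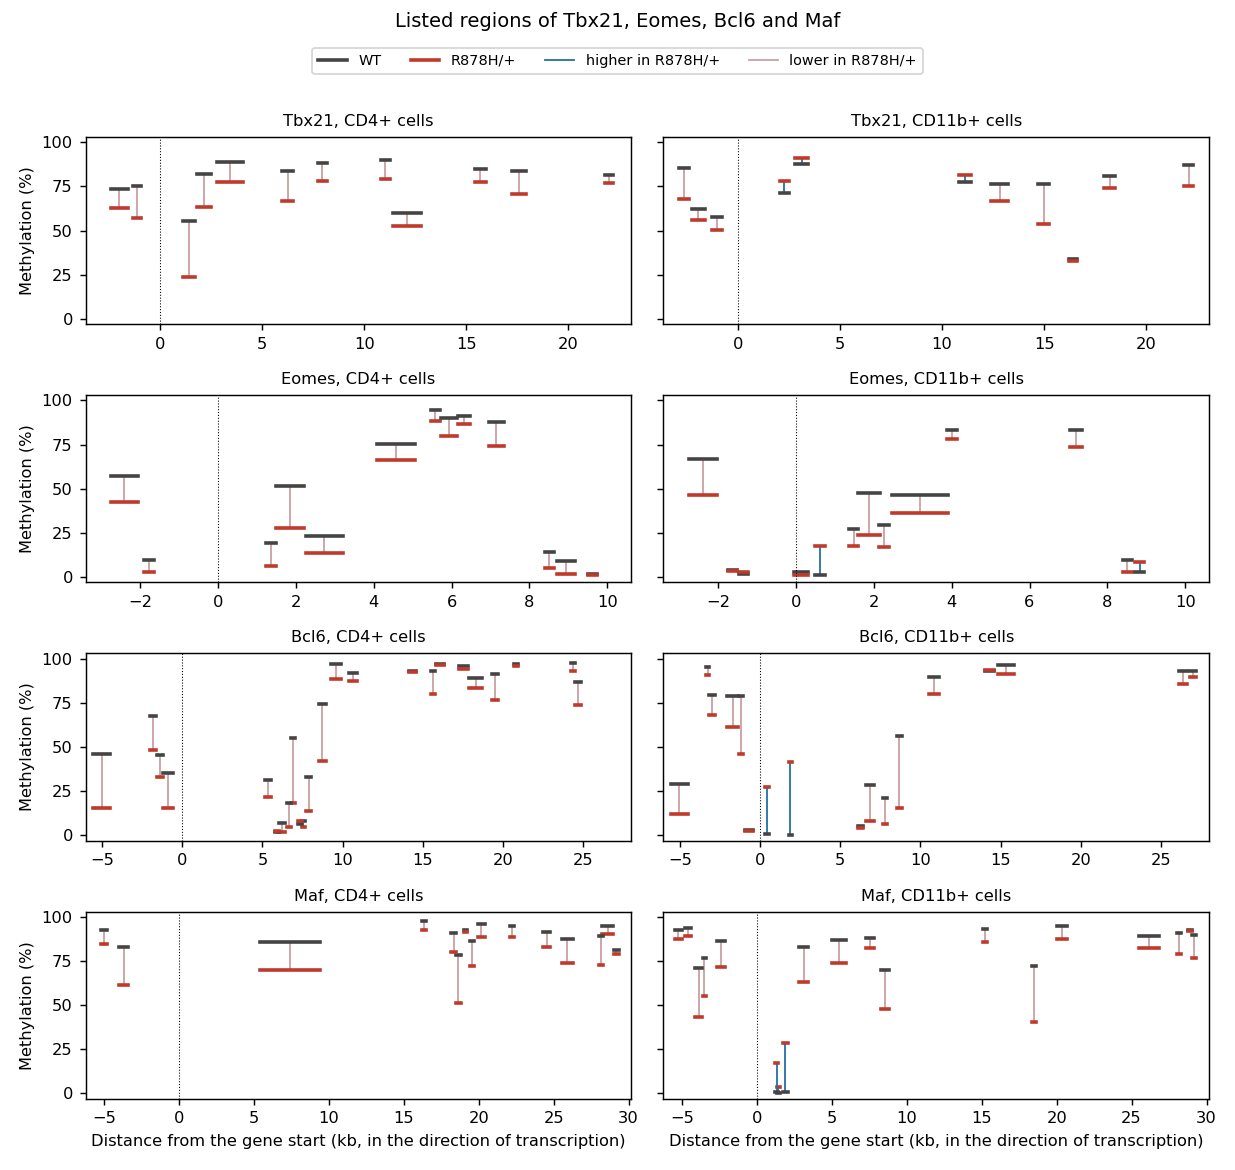
Methylation in percent (y axis) of every listed region of Tbx21, Eomes, Bcl6 and Maf by distance from the gene start in kb (x axis, in the direction of transcription), in CD4+ cells (left) and CD11b+ cells (right); horizontal bars span each region (very short ones are widened to be seen) at the WT (black) and R878H/+ (red) means, and the joining line is blue where R878H/+ is higher. The blue lines near 0% in WT close to the starts of Eomes, Bcl6 and Maf are in CD11b+ cells only.

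Stat4, the signal transducer of the IL-12 receptor, had 40 listed CD4 regions and 1 DMR. This DMR, at chr1:52012728-52013065 in an intron 4.65 kb past the internal coding start, went from 32.3% to 8.35% (-23.9 points) and had the highest q of the 12, 0.032 in the deposited table. It was already low in WT CD11b+ cells, at 13.8%, and was 4.18% in R878H/+ ones. At the start of the longest coding transcript the gene was methylated in CD4+ cells, 95% in WT and 89.3% in R878H/+ at chr1:51987163-51987553, and its RefSeq promoter holds 2 CpG dinucleotides in 300 bases. At the internal start the CD4 region chr1:52009217-52009736 was 17.0% in WT and 7.18% in R878H/+. These 2 places, the DMR and the internal start, were the lowest of Stat4 in WT CD4+ cells. Its largest loss was at chr1:52100407-52100683 in an exon, from 76.0% to 51.1%, with a q of 1 in the deposited table.

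Stat6, which carries the IL-4 signal, had its DMR in both cell types at nearly the same borders, beyond its 3′ end and within the neighbouring gene Nab2, which encodes a co-repressor of EGR factors. CD4+ cells went from 59.5% to 20.9% at chr10:127662748-127662982 (-38.6 points), the largest loss of the 12 CD4 DMRs, and CD11b+ cells from 76.7% to 40.3% at chr10:127662742-127662982 (-36.4 points). A shorter CD4 region 1 kb closer to Stat6, chr10:127661595-127661774, went from 64.4% to 9.40%. That loss of 54.95 points was the largest of all 523 CD4 regions, and it counted exactly 10 CpG cytosines. In CD11b+ cells, which have a longer region there, chr10:127660586-127661743 went from 76.8% to 63.8%. Within Stat6 itself the listed regions were high, for example 95.6% and 93.9% at chr10:127652950-127653235, and no CD4 region was listed within 1 kb of its first start.

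Maf, which encodes c-Maf, had 1 CD4 DMR of 26 CpG cytosines, 3.69 kb upstream of its start at chr8:115711179-115711794. It went from 82.7% to 61.5%, a loss of 21.1 points that was the smallest of the 12. In CD11b+ cells the overlapping region, chr8:115711427-115711915, lost more, from 71.0% to 43.2%, but counted 10 CpG cytosines. A second place of loss in both cell types was an intron at 18.6 kb, from 78.4% to 51.3% in CD4+ cells (chr8:115688998-115689332) and from 72.4% to 40.5% in CD11b+ cells (chr8:115689283-115689332). Neither was a DMR.

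Bcl6, which directs follicular helper cells, had low-methylated regions in its 5′ part. Upstream of the start a more methylated region, chr16:23990503-23990896, went from 67.8% to 48.0% in CD4+ cells. The CD11b region paired with it went from 78.8% to 61.6%. Beyond it lay the CD4 DMR of Bcl6, 5.04 kb upstream of the start at chr16:23993356-23994434, which went from 46.1% to 15.7% (-30.5 points). The same interval was listed in CD11b+ cells and went from 28.9% to 11.8%. Inside the gene, 8.69 kb past the start, chr16:23980018-23980311 was a DMR of CD11b+ cells, from 56.4% to 15.3% (-41.1 points, the largest loss of the 5 CD11b DMRs). CD4+ cells lost 32.1 points there, from 74.2% to 42.2%, with a q of 0.11. A CD4 region of exactly 10 CpG cytosines at chr16:23981881-23982034 went from 55.3% to 18.1%. The nearest listed regions upstream of the start differed between the cell types in WT, at 35.2% in CD4+ cells (15.7% in R878H/+, chr16:23989441-23990037) and 2.73% in CD11b+ cells (2.15%, chr16:23989275-23989783). These regions shared 343 bases, and the CD4 one reached further from the start, so they do not cover the same CpGs.

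The RefSeq table places a start of Bcl6 inside the GENCODE gene, at which CD4+ cells were low in both genotypes, 6.43% and 7.98% at chr16:23981454-23981532. That promoter (GRCm38.p6, minus strand, chr16:23981234-23981533, read 5′ to 3′ on the strand of the gene) held 14 CpG dinucleotides in 300 bases, more than any CD4 DMR window above.
Bcl6 promoter: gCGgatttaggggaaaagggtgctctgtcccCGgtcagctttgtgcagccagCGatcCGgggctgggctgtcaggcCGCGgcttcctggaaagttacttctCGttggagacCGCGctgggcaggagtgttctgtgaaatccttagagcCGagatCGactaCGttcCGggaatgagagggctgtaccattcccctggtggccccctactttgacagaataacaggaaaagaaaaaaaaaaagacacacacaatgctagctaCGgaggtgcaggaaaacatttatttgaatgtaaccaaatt

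Prdm1, which encodes BLIMP-1, had 61 listed CD4 regions, all lower in R878H/+, and 3 CD4 DMRs against 0 in CD11b+ cells. The annotated gene starts with a non-coding transcript far upstream, so positions are given from the nearest start of a coding transcript. The first, 41.4 kb upstream at chr10:44499701-44500573, went from 59.6% to 27.9% over 32 CpG cytosines. The second, 6.92 kb upstream at chr10:44465515-44465824, went from 80.9% to 48.8%. The third, 24.7 kb downstream and past the end of the gene at chr10:44432343-44432740, went from 81.6% to 48.8%. CD11b+ cells fell by 28.8 points at the second, from 55.6% to 26.9% and with a q of 1, and from 45.6% to 26.9% at the region overlapping the first. At the third the CD11b region that overlapped 44 bases of it was 89.8% and 82.7%. Other CD4 regions of Prdm1 fell by about as much with a q of 1 and were not DMRs, among them chr10:44454089-44455071 (75.9% to 41.7%), chr10:44456554-44456911 next to a coding start (74.5% to 43.6%) and chr10:44444283-44444746 (68.5% to 39.2%). The region at chr10:44454089-44455071 also counted only 10 CpG cytosines.

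Rora, the longest of the genes at 734461 bases, had 169 CD4 regions of more than 10 CpG cytosines. Of these 25 had a loss above 20 points (14.8%, all regions 6.89%) and 5 were DMRs (2.96%, all regions 1.49%). Of these DMRs 4 lay 10.8 to 59.3 kb past the start of the short coding transcript, which begins 636 kb into the gene, and 1 lay upstream of it. These 4 were chr9:69299972-69301078 (81.1% to 55.9%), chr9:69302286-69303684 (84.6% to 55.4%), chr9:69313825-69314942 (79.8% to 58.0%) and chr9:69348734-69349146 (88.6% to 57.0%, with a q of 1.4e-07, the lowest of the 12). The fifth, chr9:69156040-69157103, went from 84.1% to 53.5%.

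CD11b+ cells shared part of this pattern. Their DMR at chr9:69302286-69303395 went from 81.1% to 50.4% and shared its first base with the CD4 DMR there. Another at chr9:69323572-69324508 went from 72.3% to 33.3%, and CD4+ cells lost 27.8 points at the same place (81.9% to 54.1%) without being a DMR. The third, chr9:69154245-69154501, went from 86.9% to 47.5%. At the outermost CD4 DMRs CD11b+ cells fell less, from 90.8% to 83.9% at chr9:69156460-69157313 and from 92.8% to 86.1% at chr9:69348802-69349146. Within 1 kb upstream of the short transcript's start both cell types were intermediate in WT and lower in R878H/+, with 52.3% and 24.7% in CD4+ cells (chr9:69288632-69289171) and 49.7% and 28.1% in CD11b+ cells (chr9:69288633-69289170).

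**Figure D4:**
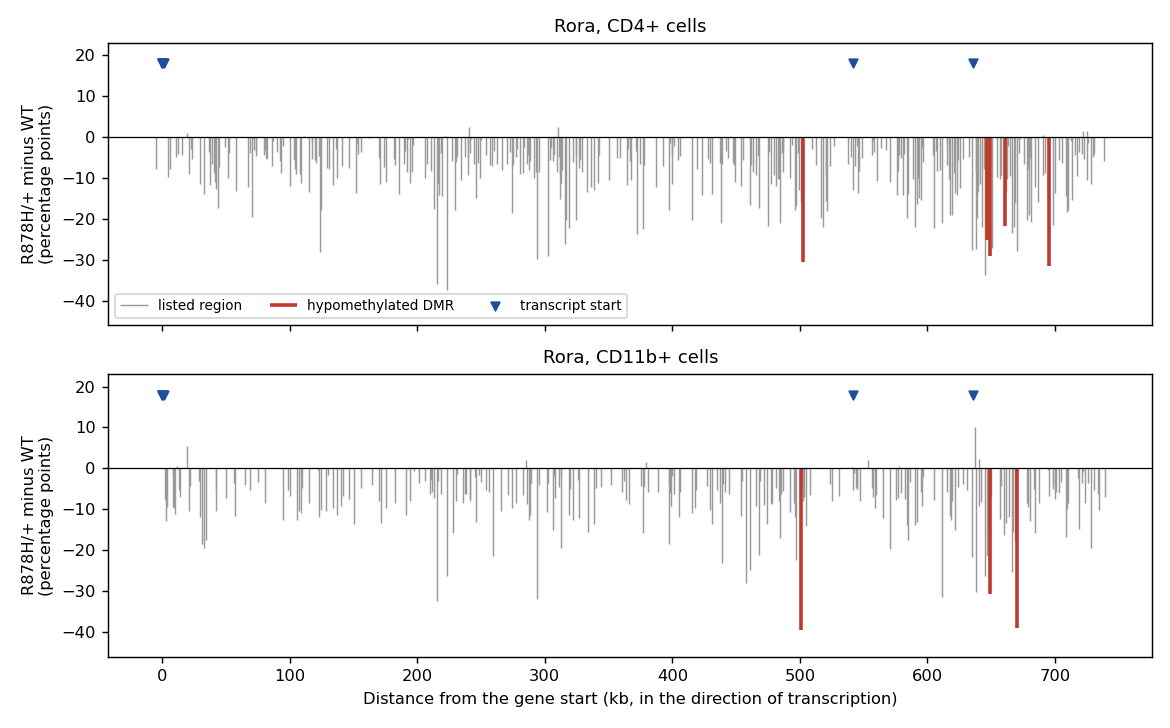
R878H/+ minus WT methylation in percentage points (y axis) at each listed region of Rora by distance of its middle from the gene start in kb (x axis), in CD4+ cells (top, 345 regions) and CD11b+ cells (bottom, 257 regions); red lines are hypomethylated DMRs and triangles annotated transcript starts. The CD4 DMRs stand at 502.8 kb and between 646.7 and 695.2 kb, 4 of them right of the last start.

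All 7 gains above 10 points were in CD11b+ cells, and lay at CpG-dense places (median 8.86 CpG dinucleotides per 100 bases) within 2 kb of an annotated start that were near 0% in WT. Of the member regions below 5% methylation in WT, 11 of 14 were higher in R878H/+ CD11b+ cells, 7 of them by more than 10 points, compared with 1 of 5 and 0 of 5 in CD4+ cells. Of all listed regions below 5% in WT, 59.6% were higher in R878H/+ in CD11b+ cells and 43.6% in CD4+ cells. Across the genome 23.8% of all 5835 such regions gained more than 10 points in CD11b+ cells and 0.440% of 4548 did in CD4+ cells. Such gains in CD11b+ cells were therefore not confined to these genes.

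In Bcl6, chr16:23986925-23987003, 1.89 kb past the start, went from 0.175% to 41.3%, and chr16:23988337-23988536, in the promoter, from 0.592% to 27.4%. In Maf, chr8:115705741-115706058 in the exon went from 0.958% to 28.4% and chr8:115706380-115706578 from 0.775% to 17.4%. Eomes went from 1.0% to 17.7% at chr9:118478691-118478970, and Prdm1 from 0% to 16.7% at chr10:44458553-44458593, 94 bases past the start of a coding transcript. The remaining gain above 10 points was in Rora, from 3.8% to 13.9% at chr9:69291383-69291486. None was a DMR, since the q was 1 at each of the 7. Only the Maf region and the Bcl6 promoter had more than 10 CpG cytosines and a gain above 20 points, which 0.298% of CD11b regions of that size had and 0.00769% of CD4 ones.

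Not all CpG cytosines of these places entered the means. The Maf region counted 12 of the 45 CpG cytosines that mm10 holds there (26.7%), its neighbour 10 of 51, the Eomes region 23 of 59, the Bcl6 promoter 19 of 24, the other Bcl6 region 10 of 14, and the Rora and Prdm1 regions 10 of 12 each. The median share counted was 75% over all CD11b regions. Among those below 5% in WT it was 48.0% for the regions that gained more than 10 points and 55.6% for the rest, while among the 14 member regions it was 71.4% for the 7 with such a gain and 52.2% for the other 7. The CD11b samples of R878H/+ also differ in that 2 of the 4 mice have 2 sequenced entries each. The part of either in the gains was not tested. At the Rora place CD4+ cells went the other way, from 12.1% to 3.58%. No region of CD4+ cells was listed at the other 6 places, so the cell types could not be compared there.

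Both places, chosen after their values were seen, are shown because they hold more CpG dinucleotides per base than the DMR windows above, the nearest being that of Stat6: the first 300 bases of the Maf region (chr8:115705741-115706040) held 20 CpG dinucleotides and the Bcl6 region (chr16:23986925-23987003) 7 in 79 bases. Both are from the plus strand of mm10 with CpG dinucleotides in capitals.
Maf gain: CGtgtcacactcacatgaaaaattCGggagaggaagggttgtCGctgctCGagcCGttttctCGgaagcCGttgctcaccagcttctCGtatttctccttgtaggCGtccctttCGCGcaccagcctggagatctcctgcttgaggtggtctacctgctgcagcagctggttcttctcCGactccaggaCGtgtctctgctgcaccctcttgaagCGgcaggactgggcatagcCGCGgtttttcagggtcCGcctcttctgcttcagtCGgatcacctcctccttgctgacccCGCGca
Bcl6 gain: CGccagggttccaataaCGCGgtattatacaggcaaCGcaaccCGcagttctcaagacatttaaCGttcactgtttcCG

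The 2 cell types were set side by side at the 162 places where a region of each overlapped the other by at least 50% of its length. The median difference between genotypes there was -11.4 points in CD4+ cells and -9.78 in CD11b+ cells, and the median of the CD4 minus the CD11b difference was 0.0915 points (order-statistic interval -1.93 to 0.771, all pairs -0.3). Both were lower in R878H/+ at 157 of 162 (96.9%, all pairs 94.8%). WT CD4+ cells were more than 20 points lower than WT CD11b+ cells at 3 places (1.85%, all pairs 1.26%) and more than 20 points higher at 8 (4.94%, all pairs 4.19%).

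The 3 places that were lower in WT CD4+ cells were the exon of Eomes at chr9:118480468-118481421 (23% against 46.3%), an intron of Rora at chr9:68753627-68754158 (63.5% against 86.6%) and a region beyond Stat6 at chr10:127664858-127665109 (52.5% against 86.1%). Of the 8 that were higher, 1 each was in Stat4, Prdm1 and Bcl6, the last with the widest gap (35.2% against 2.73%), and 5 were in Rora, for example 57.3% against 26.0% at chr9:69319482-69321097. Where the loss was larger in CD4+ cells by more than 20 points, the places were the 2 outer Rora DMRs, the Tbx21 intron at chr11:97112839-97113523 and the Prdm1 intron at chr10:44454089-44455071. The Prdm1 intron counted only 10 CpG cytosines in CD4+ cells, and the Tbx21 intron only 10 in CD11b+ cells.

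**Figure D5:**
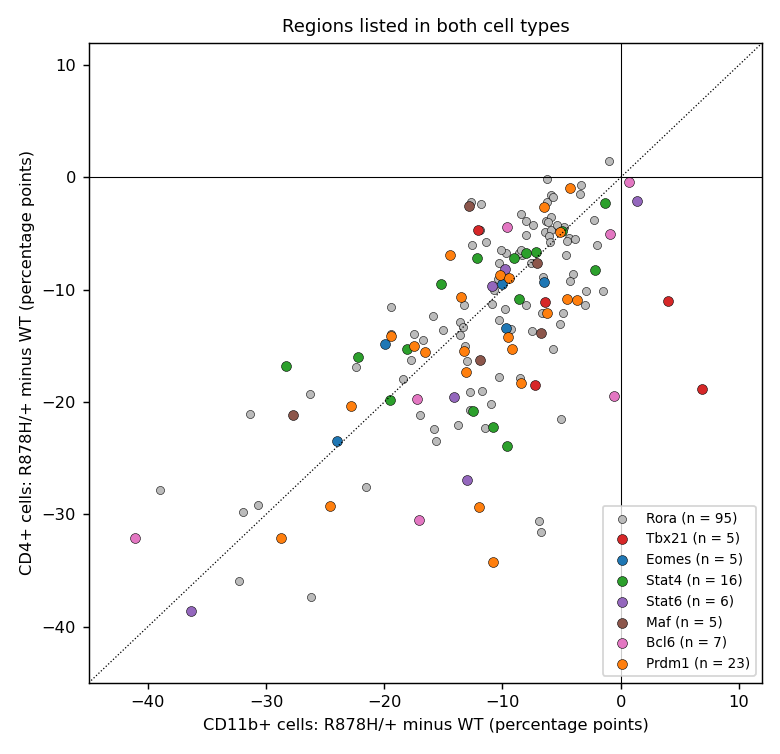
R878H/+ minus WT methylation in percentage points at the 162 regions listed in both cell types, CD11b+ cells on the x axis and CD4+ cells on the y axis, coloured by gene; the dotted line marks equal change. Most points lie in the lower left, below 0 in both cell types. Right of 0, where CD11b+ cells gained and CD4+ cells lost, lie 2 Tbx21 points (red), a Stat6 point (1.35 in CD11b+ cells) and a Bcl6 point (0.725).

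Other genes of the helper T programme were described in the same way. Of 22 partner factors, 8 had a CD4 DMR, against 11.8% of protein-coding genes with a region of more than 10 CpG cytosines. They held 16 DMRs among the 335 regions of that size of all 22 (4.78%, the background being 1.49% as above). The median difference over the regions of the 22 genes was -9.53 points. The largest losses per gene were in Runx3, a partner of T-bet, from 74.5% to 20.2% at chr4:135154894-135155435, and Hlx, from 83.1% to 37.7% at chr1:184730764-184731196. Gata3, which leads the IL-4 programme, went from 64.6% to 26.7% at chr2:9868720-9870100, Stat3 from 85.7% to 48.2%, Nfil3 from 88.6% to 52.4% and Bach2 from 83.9% to 51.4%. CD11b+ cells also had a DMR at the Runx3 place (77.4% to 24.5%) and at the Gata3 place (54.9% to 21.5%). The Hlx, Stat3, Nfil3 and Bach2 DMRs named here overlapped no CD11b DMR. Of all CD4 DMRs 33.7% had one as the region overlapping them most. Another CD4 DMR of Hlx, chr1:184727629-184727970 (90.2% to 49.3%), overlapped a CD11b DMR at chr1:184727836-184728195 (86.7% to 55.5%). In CD11b+ cells 6 of the 22 partner factors had a DMR (all genes 8.9%), with 13 DMRs in total (5.88% of regions, all regions 1.38%).

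Of 22 signal and target genes, mostly cytokines and the receptors of cytokines and chemokines, 8 had a CD4 DMR (all genes 11.8%). They held 10 DMRs among the 158 regions of more than 10 CpG cytosines of all 22 (6.33%, all regions 1.49%). The median difference over the regions of the 22 genes was -10.4 points. Il12rb1, which encodes a chain of the IL-12 receptor above STAT4, went from 80.1% to 33.2% at chr8:70816742-70817121. Ptgdr2, a receptor of a prostaglandin with 2 of the 10 DMRs, went from 70.4% to 25.7%, Cxcr5 from 63.2% to 26.9%, Il4 from 90.4% to 54.3% and Il13 from 74.0% to 41.1%. In CD11b+ cells 2 of these 22 genes had 1 DMR each, Ptgdr2 and Ccr4 (all genes 8.9%). These were 1.94% of regions, near the 1.38% of all. The shares of DMRs among the 8 genes and both lists were 4.53%, 4.78% and 6.33% in CD4+ cells, and their difference was not tested.

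The labelled cell types were checked by WT methylation within 2 kb of the starts of marker genes. Each mean is over the regions listed there for that cell type. These were not matched in position, with 2 regions of CD4+ and 1 of CD11b+ cells at Cd3e, for example. T cell genes were lower in CD4+ cells at 4 of the 6 that could be compared of 13, for example Cd3e at 27.8% against 65.2%, and Cd28 and Lat were not. Myeloid genes were lower in CD11b+ cells at 8 of 11 (of 13 listed), for example Spi1 at 38.5% against 86.0%, but Mpo and Elane among them differed by less than 1 point. The exceptions were Cebpe, Cd14 and Itgam, which encodes CD11b itself (85.1% in CD11b+ and 81.9% in CD4+ cells). B cell genes were also lower in CD11b+ cells, at 5 of 5 (of 7 listed), for example Cd79b at 23.4% against 58.2%, with means over the list of 23.4% to 75.3% in CD11b+ and 58.2% to 92.4% in CD4+ cells. Their part in the CD11b values above was not tested. In bulk samples a change in the methylation of each cell and a change in the mixture of cells cannot be told apart.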

How the data were processed

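WGBS libraries of splenic CD4+ and CD11b+ cells were made with a Zymo-Seq WGBS kit, which the authors aligned to mm10 by BISCUIT before metilene divided the CpGs into regions. Their parameters, minimum coverage and versions are not given in the sources used here. The 2 deposited tables, 1 per cell type, hold each group's mean methylation (percent), a q-value by which the authors' caller scored each region, and the number of CpG cytosines as a count. They also hold the authors' difference of the means and the p-values of a Mann-Whitney and a 2-dimensional Kolmogorov-Smirnov test, which were not used. They contain 0 columns of per-sample values and give no depth of single regions, so no value has an error between mice. The 18 sample entries stand for 4 mice in each of the 4 groups.

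Differences were computed as R878H/+ minus WT, and group means are the authors' means. Starts were converted to count from 1. Genes and starts came from GENCODE release M21 and sequences from mm10 (GRCm38). DMRs had more than 10 CpG cytosines, a difference above 20 points and a q-value below 0.05 in the deposited table. A promoter was taken as 1 kb around a transcript start on either side. The region nearest a start, all DMRs, the largest loss of a gene without a DMR and at most 6 genes per further list were named, with the gains named after their values were seen. Of these genes, 1 is not reported here. Members and lists were chosen with earlier results of these data known. Medians have 95% order-statistic intervals. Maf had no entry in the RefSeq promoter table. Python 3.11.15, pandas 2.3.3, numpy 2.4.6, pysam 0.24.0 and matplotlib 3.10.9 were used, and the scripts were tested on simulated data. Alternatives changed the q-value, difference and CpG thresholds, the flanks, the overlap and the presence of Rora.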

Additional observations from a re-analysis of the deposited data

How the results depend on the processing

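Of the 31 alternatives, 22 left the value within 1.5 times of the DMR count, or within the interval of the median, and 9 did not. The number of hypomethylated DMRs of the 8 genes in CD4+ cells went from 12 to 42 with no q threshold, to 7 with a difference above 30 points, to 7 with more than 20 CpG cytosines and to 7 without Rora. In CD11b+ cells it went from 5 to 18 with no q threshold, to 1 with more than 20 CpG cytosines and to 2 without Rora. Without Rora the median difference went from -8.55 to -9.47 points in CD4+ cells and from -8.0 to -9.44 points in CD11b+ cells. These follow from the construction of the alternatives, which admit or drop regions. The median difference between the cell types at matched regions ran from -1.14 to 0.0915 points, so its sign was not fixed. No paired analysis was possible because the tables hold group means and no columns of single mice, and for the same reason no mouse could be left out. The tables do not give the depth of single regions, so how far it limits them is unknown.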
